A study of Mus musculus with 6 samples.

Results

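The insulin-like growth factor (IGF) binding proteins are the secreted carriers that hold IGF1 and IGF2 outside cells. Their 7 genes, Igfbp1 to Igfbp7, were taken by symbol from a table of 43346 genes, where each symbol matched a single row. Transcripts were counted in 6 libraries from the distal femoral metaphysis, the marrow-filled spongy end of the bone beside the growth plate, of C57BL/6 mice aged 4 months. The 3 radiated libraries came from right femurs given a single focal X-ray dose of 24 Gy, and the 3 non-radiated libraries came from left femurs that were outside the beam. All were taken on day 21, a time chosen to precede the bone loss of later days. The control bones therefore came from the opposite legs of treated mice, and no untreated mouse was compared. The labels do not say whether a library pooled mice or which libraries shared one, so the p-values measure the spread between these libraries.

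IGF1 and IGF2 act through the IGF1 receptor, and most of the IGF outside cells is bound to a binding protein that keeps it from the receptor, prolongs its life or delivers it to the matrix. Proteases such as pappalysin-1 cut binding proteins and release the ligand. In bone, osteoblasts and marrow stromal cells are known sources of IGFBP4 and IGFBP5, and IGFBP5 binds to mineralized matrix. IGFBP6 prefers IGF2, and IGFBP7 is a weaker, more distant relative that is abundant in vessel walls.

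Library totals ran from 34034251 to 48708383 counts. One row, AY036118, held 32.9% of the counts in non-radiated library 2 and 0.321% to 5.61% in the others, so the trimmed mean of M-values (TMM) was used to scale libraries and levels are given as CPM, read counts relative to the scaled size of the library. The 12 osteoblast genes checked were all detected, with a summed level of 9007 to 13616 CPM in non-radiated and 6801 to 8800 CPM in radiated libraries. The 12 skeletal muscle genes checked were also present, at 167 to 342 CPM in non-radiated libraries and at 753, 2479 and 196 CPM in radiated libraries 1, 2 and 3, although the protocol removed muscle before the bone was homogenized.

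The members lie on 4 chromosomes of build mm10, and 4 of them form neighbouring pairs that converge tail to tail. On chromosome 1, Igfbp2 (ENSMUSG00000039323, 72824503 to 72852474, plus strand) is followed after 5457 bases by Igfbp5 (ENSMUSG00000026185, 72857932 to 72874884, minus strand). On chromosome 11, Igfbp1 (ENSMUSG00000020429, 7197782 to 7202546, plus strand) is followed after 3539 bases by Igfbp3 (ENSMUSG00000020427, 7206086 to 7213923, minus strand). Igfbp4 (ENSMUSG00000017493, 99041244 to 99054392) is on the plus strand of chromosome 11, and Igfbp6 (ENSMUSG00000023046, 102144362 to 102149511) on the plus strand of chromosome 15. Igfbp7 (ENSMUSG00000036256, 77349240 to 77408045) is on the minus strand of chromosome 5, and its last 85 bases overlap the end of Polr2b on the other strand.

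The sequences just before the start sites of the 4 members with the clearest levels or differences are shown because they differ in base composition and in core elements. They are from the RefSeq promoter table of build GRCm38.p6, which held all 7 members, and each runs 5′ to 3′ on the gene's strand, in lower case with motif matches in capitals. The Igfbp5 stretch is 231 bases, since the 19 bases next to its RefSeq start lie in an exon of the gene annotation and are not shown, although the motif search and the CG count covered them. The motifs searched on both strands of the 250 bases before each start were TATANA (a loose TATA element), GGGCGG (a GC box), CCAAT (bound by NF-Y), CACGTG (an E-box) and the p53 half-site.
Igfbp3, chr11:7213924-7214173, minus strand: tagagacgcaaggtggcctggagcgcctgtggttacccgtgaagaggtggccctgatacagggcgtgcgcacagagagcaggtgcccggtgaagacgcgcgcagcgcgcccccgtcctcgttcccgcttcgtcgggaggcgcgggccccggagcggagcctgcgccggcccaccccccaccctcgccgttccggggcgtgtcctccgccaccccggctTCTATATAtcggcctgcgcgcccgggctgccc
Igfbp5, chr1:72874885-72875115, minus strand: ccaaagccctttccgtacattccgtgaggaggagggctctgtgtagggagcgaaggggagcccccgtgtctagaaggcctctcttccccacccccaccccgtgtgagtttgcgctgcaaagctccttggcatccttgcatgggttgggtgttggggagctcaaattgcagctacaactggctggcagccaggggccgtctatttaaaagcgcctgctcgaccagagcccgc
Igfbp4, chr11:99040994-99041243, plus strand: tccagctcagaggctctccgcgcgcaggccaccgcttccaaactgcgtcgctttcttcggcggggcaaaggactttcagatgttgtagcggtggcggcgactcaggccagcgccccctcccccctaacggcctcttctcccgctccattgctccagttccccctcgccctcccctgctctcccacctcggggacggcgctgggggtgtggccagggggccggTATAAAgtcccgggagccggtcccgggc
Igfbp7, chr5:77408046-77408295, minus strand: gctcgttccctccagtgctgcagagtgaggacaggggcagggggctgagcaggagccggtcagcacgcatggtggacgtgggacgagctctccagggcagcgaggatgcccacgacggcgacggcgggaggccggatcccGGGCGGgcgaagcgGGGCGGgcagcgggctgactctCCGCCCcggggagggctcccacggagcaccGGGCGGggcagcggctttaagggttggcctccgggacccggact
The Igfbp7 window held 4 GGGCGG matches and no TATANA, the Igfbp4 window held 1 TATANA match 28 to 23 bases before the start, and the Igfbp3 window held 2 overlapping TATANA matches 32 to 25 bases before it. None of the 5 motifs was found in the Igfbp5 window, which says only that these letters are not there. Of 32851 promoter windows of the same length, 22.6% held TATANA, 32.7% GGGCGG, 33.8% CCAAT, 6.0% CACGTG and 7.1% the p53 half-site, and no member's window held the last. CG dinucleotides numbered 32 in the Igfbp3 window, 26 in that of Igfbp7, 22 in that of Igfbp4 and 10 in that of Igfbp5, against a median of 6 over all windows. The matches are descriptions of sequence and were not tied to the expression values.

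The family moved in both directions. Igfbp7 was 1.41-fold higher and Igfbp3 1.55-fold lower in radiated femur, and both passed the test. Igfbp5 and Igfbp4, the most abundant members by CPM, and Igfbp6 did not pass it, with log2 fold changes of -0.64, 0.23 and 1.45. Igfbp6 varied widely among the radiated libraries, in the order of the summed skeletal muscle genes and of the summed fibroblast and tendon genes. Igfbp2 was low and showed no detectable difference, and Igfbp1 had no count in any library. By edgeR's quasi-likelihood test with Benjamini-Hochberg adjustment over 18757 genes, 1 of the 6 members tested was called higher and 1 lower, where a call is an adjusted p under 0.05. Over all genes tested, 7.80% were called, 4.56% higher (856 genes) and 3.24% lower (607 genes). With the replicate number as a block, 2 members were called higher and 2 lower, beside 1034 and 636 of all genes tested. With libraries scaled by their totals alone the split over all genes was 854 higher and 146 lower, and all genes had a median of 0.19 on the log2 scale in place of 0.0023. The members' median log2 fold change was -0.02. For 5 of the 6 members the radiated and non-radiated CPM ranges stood apart, against 25.9% of all genes tested. The signs of the 6 log2 fold changes were the same in each of the alternatives that gave a value, including every change of scaling.

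**Figure D1:**
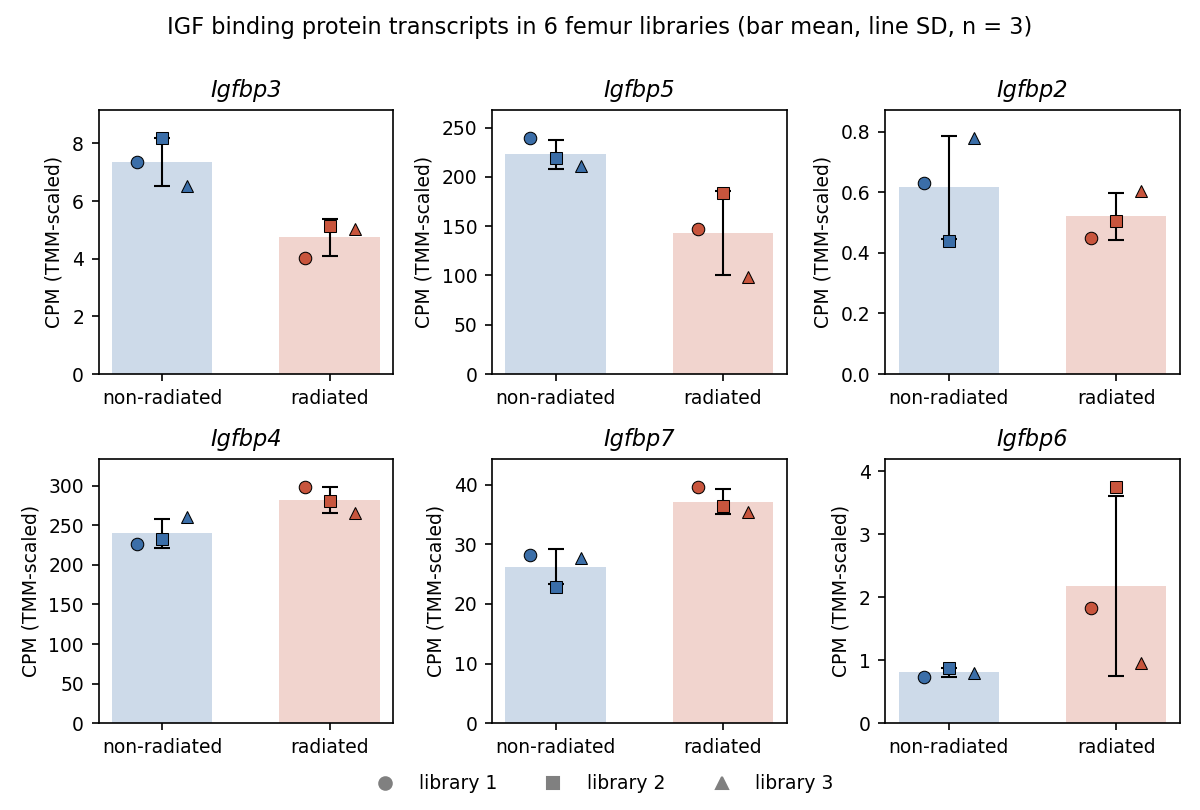
Level of each detected member in CPM (vertical axes from 0) in the non-radiated and radiated libraries; symbols mark the library number, bars the mean and lines the SD (n = 3 each). Igfbp3 and Igfbp5 lie lower and Igfbp4 and Igfbp7 higher in all radiated libraries, the Igfbp2 groups overlap, and Igfbp6 is spread from 0.964 to 3.75 CPM in the radiated libraries.

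Igfbp3 encodes the main carrier of IGF in blood, which joins a ternary complex with the acid-labile subunit, and it is a known p53 target gene. It was at 7.35, 8.18 and 6.54 CPM in non-radiated libraries 1, 2 and 3 and at 4.02, 5.15 and 5.04 CPM in radiated libraries 1, 2 and 3. Every radiated value lay below every non-radiated value, and radiated library 1 was the lowest. The means were 7.36 ± 0.824 and 4.74 ± 0.626 CPM (SD, n = 3 each), so that Igfbp3 fell by 0.63 on the log2 scale (SE 0.14, adjusted p by edgeR 0.0286), and it was lower in 3 of 3 same-numbered pairs. The call rested on 152 to 277 counts per library. It was lost without non-radiated library 1 (log2 fold change -0.63, adjusted p 0.0811), non-radiated library 2 (-0.56, 0.0974) or radiated library 1 (-0.53, 0.0994), with the summed skeletal muscle genes as a covariate (-0.67, 0.0723) and with library totals alone (-0.42, 0.561), within a range of 0.00241 to 0.561 over 15 alternatives.

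Igfbp5 encodes the matrix-bound binding protein of bone. It was at 239, 219 and 211 CPM in non-radiated libraries 1, 2 and 3 and at 147, 184 and 98.1 CPM in radiated libraries 1, 2 and 3. The groups did not overlap, but the radiated libraries differed among themselves, with library 3 the lowest. The means were 223.0 ± 14.9 and 143 ± 42.9 CPM (SD, n = 3 each), a log2 fold change of -0.64 (SE 0.18) that was not called (adjusted p by edgeR 0.0673). In the fit with the replicate number as a block it was called, at -0.68 (adjusted p by edgeR 0.0154), and Igfbp5 was lower in 3 of 3 pairs. It was also called without radiated library 2 (-0.86, adjusted p 0.00804) and without radiated library 3 (-0.43, 0.0366), with no filter on low counts (0.00321) and with the summed muscle genes as a covariate (-1.07, 0.000394), in a range of 0.000394 to 0.280 over 15 alternatives.

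The osteoblast is one known source of Igfbp5. Of the 12 osteoblast genes 4 were called lower (Col1a1, Ifitm5, Runx2 and Phex) and none higher. The other 8 did not pass the test, and Alpl among them was at 0.08 on the log2 scale. The list had a median of -0.56, and radiated libraries 1, 2 and 3 held 8800, 6801 and 7823 CPM of their sum. Radiated library 3 was the lowest for Igfbp5 and radiated library 2 for this sum, of which Col1a1 and Col1a2 were the largest parts. Of 10 marrow stroma genes 2 were called lower and 1 higher, with a median of -0.21, at 1754 to 1845 CPM in non-radiated and 1533 to 1708 CPM in radiated libraries. The higher gene was Adipoq, which is also on the adipocyte list, and the lower genes were Lepr and Pdgfra. The part of these cells in the Igfbp5 difference was not tested. In whole tissue such as this, fewer cells of a type and less RNA per cell cannot be told apart.

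Igfbp4 encodes the binding protein that pappalysin-1 cleaves and that mainly inhibits IGF action. It was at 226, 232 and 260.4 CPM in non-radiated libraries 1, 2 and 3 and at 298, 281 and 266 CPM in radiated libraries 1, 2 and 3. The highest non-radiated and the lowest radiated value, both from libraries numbered 3, were close, and the groups did not overlap. The means were 239.7 ± 18.1 and 282 ± 16.0 CPM (SD, n = 3 each), a 1.18-fold difference (log2 0.23, SE 0.07) that was not called (adjusted p by edgeR 0.0844). It was called without non-radiated library 3 (0.29, adjusted p 0.0340), with no filter on low counts (0.0497) and by DESeq2's Wald test (0.0263), in a range of 0.0263 to 0.351 over 15 alternatives. The osteoblast and marrow stroma lists, of known sources of Igfbp4, had median log2 fold changes of -0.56 and -0.21. In these lists 8 of 12 and 7 of 10 genes were not called. Of the 10 adipocyte genes checked, 9 were called higher and none lower. Their sums were 208 to 232 CPM in non-radiated and 415 to 538 CPM in radiated libraries. The part of any of these cells in the Igfbp4 level was not tested.

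Igfbp7 encodes a relative with low affinity for IGF that is known from vessel walls and from senescent cells. It was at 28.1, 22.9 and 27.7 CPM in non-radiated libraries 1, 2 and 3 and at 39.5, 36.4 and 35.5 CPM in radiated libraries 1, 2 and 3. Every radiated library was above every non-radiated one by more than the range within either group. The means were 26.2 ± 2.92 and 37.2 ± 2.13 CPM (SD, n = 3 each), so that Igfbp7 rose by 0.50 on the log2 scale (SE 0.09, adjusted p by edgeR 0.0106), in 3 of 3 pairs. Of the alternatives, 14 of 15 called it, and the exception was the fit without radiated library 1 (0.45, adjusted p 0.0513, the highest of a range from 2.24e-05). Polr2b, the gene that overlaps its end, had a log2 fold change of -0.04 (adjusted p 0.717), and the use of strand in counting is not stated.

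The endothelial genes checked beside Igfbp7 did not move as a block. Of 12, none was called higher and 2 were called lower, and their median difference was 0.14 on the log2 scale, with sums of 346 to 379 CPM in non-radiated and 367 to 396 CPM in radiated libraries. The 2 lower genes were Tek, the angiopoietin receptor, which fell by 0.60 on the log2 scale (adjusted p by edgeR 0.00325), and Esam, a junction protein, which fell by 0.55 (adjusted p 0.00480). Of the other 10, 7 had a positive log2 fold change, among them the junction proteins Pecam1 at 0.20 (adjusted p by edgeR 0.0581) and Cdh5 at 0.30 (0.0585), and Emcn, a sialomucin, at 0.38 (0.107). Of 7 smooth muscle and pericyte genes tested 3 were called higher and none lower, with sums of 175 to 189 CPM and 200.4 to 255 CPM in the respective groups. The part of vessel cells in the Igfbp7 difference was not tested.

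Igfbp6 encodes the binding protein with a preference for IGF2. It was at 0.741, 0.878 and 0.802 CPM in non-radiated libraries 1, 2 and 3 and at 1.82, 3.75 and 0.964 CPM in radiated libraries 1, 2 and 3, from 22 to 200 counts. The groups did not overlap, yet radiated library 3 was only just above the non-radiated range while radiated library 2 was far above it. The means were 0.807 ± 0.0690 and 2.18 ± 1.42 CPM (SD, n = 3 each), a log2 fold change of 1.45 (SE 0.44, adjusted p by edgeR 0.0833) that was not called. With the replicate block it was called, at 1.24 (adjusted p by edgeR 0.0474), and it was called without radiated library 3 (1.80, adjusted p 0.0108), with library totals alone (1.65, 4.21e-05), with no filter (0.0104) and by DESeq2's Wald test (0.00706), but not without radiated library 2 (0.78, 0.207), in a range of 4.21e-05 to 0.581 over 15 alternatives. The fits with library totals alone and with no filter leaned more on the spread shared by all genes than the main fit did. Their median prior degrees of freedom, which set that weight, were infinite and 16.5, against 5.18. An infinite value leaves the spread of Igfbp6 among its own libraries out of the adjusted p.

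The level of Igfbp6 followed the order of the skeletal muscle genes among the radiated libraries. Those 12 genes were at a median of 2.32 on the log2 scale with none called by edgeR, although all 12 had an unadjusted p under 0.05, and none was at 0 in every library. With their summed level as a covariate the Igfbp6 log2 fold change was 0.33 (SE 0.26, adjusted p by edgeR 0.581). That sum was itself higher in radiated libraries 1 and 2 than in any non-radiated library, so this fit cannot fully separate it from the group. The fibroblast and tendon sums stood in the same order, at 501, 517 and 362 CPM in radiated libraries 1, 2 and 3. In non-radiated libraries they were 402 to 476 CPM. Of these genes, 3 of 11 tested were called higher, and no covariate was fitted for them. The part of muscle, fibroblast and tendon cells in the Igfbp6 level was not tested.

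**Figure D2:**
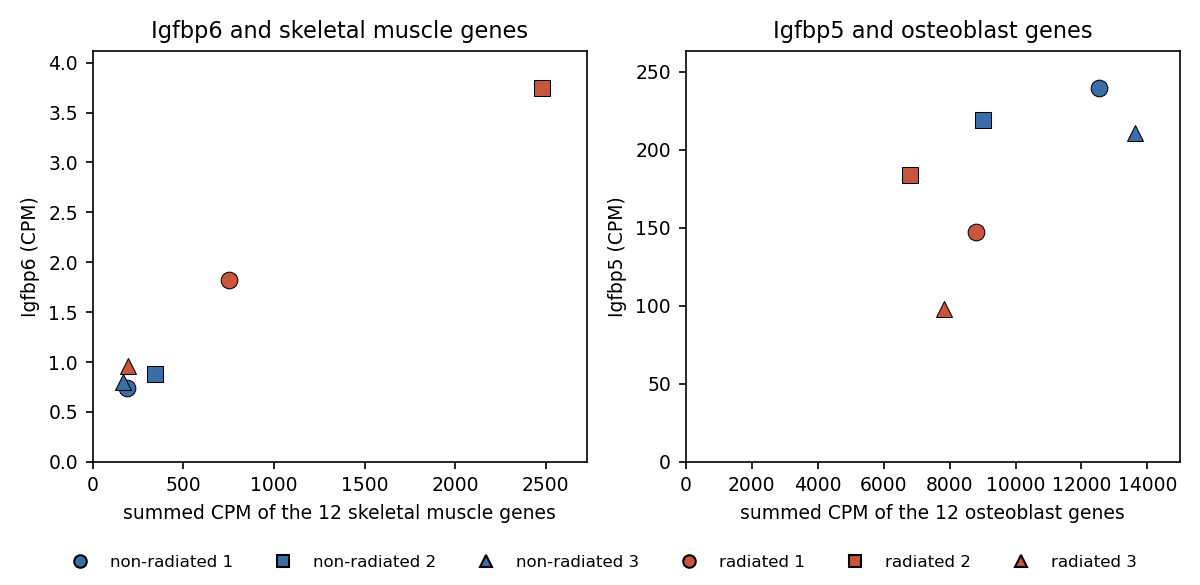
Left, Igfbp6 in CPM against the summed CPM of the 12 skeletal muscle genes; right, Igfbp5 in CPM against the summed CPM of the 12 osteoblast genes; each point is a library and all axes start at 0. Radiated library 2 is highest for Igfbp6 (3.75 CPM) and for the muscle sum (2479 CPM). Radiated library 3 is lowest for Igfbp5 (98.1 CPM), with an osteoblast sum of 7823 CPM.

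Igfbp2 and Igfbp1 were the members at the low end. Igfbp2, a binding protein known from fetal tissue, brain and adipocyte precursors, was at 0.631, 0.439 and 0.779 CPM in non-radiated libraries 1, 2 and 3 and at 0.449, 0.506 and 0.605 CPM in radiated libraries 1, 2 and 3. The groups overlapped, and 2 of 3 pairs were lower in the radiated bone. With 11 to 33 counts per library, a difference was not detectable (log2 fold change -0.27, SE 0.29, adjusted p by edgeR 0.657). Igfbp1, the insulin-regulated binding protein of liver, had 0 counts in all 6 libraries, which allows up to 0.0562 to 0.120 CPM per library by the 3 counts that a count of 0 can hide, counting error only. The 8 liver genes checked were mostly near 0. Ttr and Fgb had no count in any library, and Alb had counts in non-radiated library 1 alone. Serpina1a, a secreted protease inhibitor, was at 4.44, 4.83 and 5.38 CPM in non-radiated libraries 1, 2 and 3 and at 1.22, 0.655 and 2.55 CPM in radiated libraries 1, 2 and 3, and it fell by 1.74 on the log2 scale (adjusted p by edgeR 0.0267). Serpina1b was at a log2 fold change of -0.94 and was not called (adjusted p by edgeR 0.203).

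**Figure D3:**
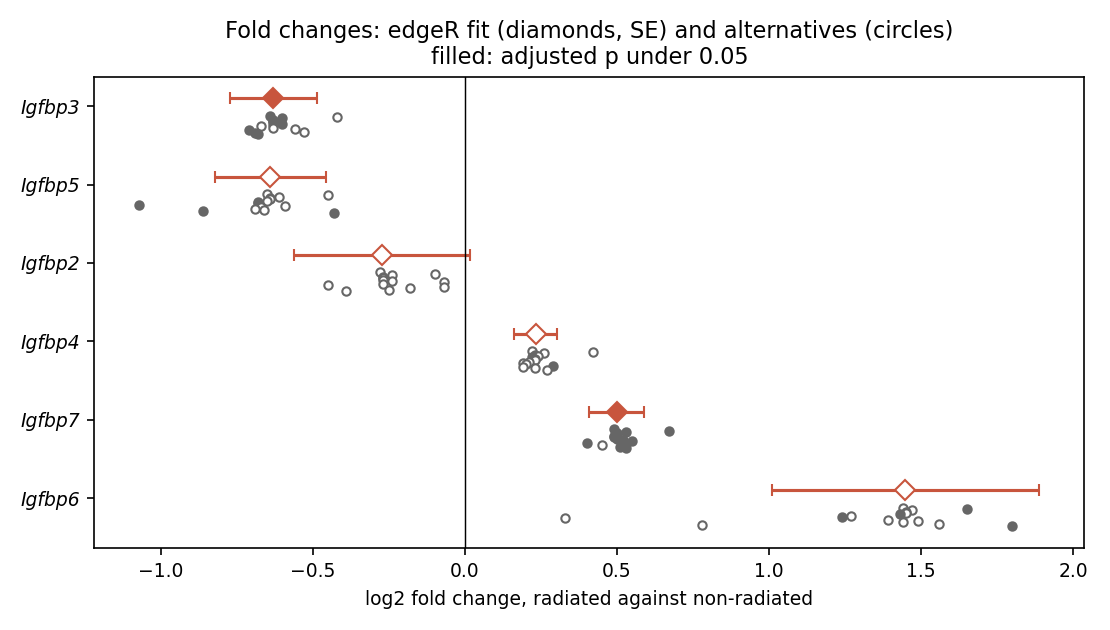
Log2 fold change, radiated against non-radiated, of the 6 tested members (horizontal axis); diamonds are the edgeR fit with its SE, circles the alternatives, and filled symbols have an adjusted p under 0.05. Igfbp7 is filled in 14 of 15 alternatives, Igfbp3 in 10 and Igfbp5 in 5, and no symbol lies on the other side of 0 from its diamond.

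Levels of different genes were compared as CPM per kilobase of the gene length in the table. In the non-radiated libraries the order was Igfbp4 at 54.3 ± 4.11, Igfbp5 at 37.1 ± 2.47, Igfbp7 at 21.6 ± 2.41, Igfbp3 at 2.35 ± 0.263, Igfbp6 at 0.726 ± 0.0621 and Igfbp2 at 0.334 ± 0.0922 CPM per kilobase (SD, n = 3). No neighbours in that order overlapped between libraries. In the radiated libraries Igfbp4 stayed first at 63.8 ± 3.63, followed by Igfbp7 at 30.6 ± 1.75 and Igfbp5 at 23.8 ± 7.15 CPM per kilobase (SD, n = 3), and the last 2 overlapped. Igfbp6 at 1.96 ± 1.28 and Igfbp3 at 1.51 ± 0.200 CPM per kilobase also overlapped there, with Igfbp2 last at 0.281 ± 0.0427.

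Igfbp5 lay above Igfbp7 in all 3 non-radiated libraries and in radiated library 2, and below it in radiated libraries 1 and 3. The ratio of Igfbp5 to Igfbp7 per kilobase in libraries 1, 2 and 3 was 1.72, 1.93 and 1.53 for non-radiated bone, and 0.753, 1.02 and 0.559 for radiated bone. This ratio was formed after the values were seen and was not tested. Igfbp4, Igfbp5 and Igfbp7 made up nearly all of the summed level per kilobase. The share of Igfbp5 was 31.9% ± 2.43 in non-radiated and 19.3% ± 4.28 in radiated libraries, and that of Igfbp7 was 18.5% ± 1.46 and 25.2% ± 1.88 (SD, n = 3 each). The sum itself was 116 ± 4.42 and 122 ± 11.6 CPM per kilobase (SD, n = 3 each), with overlapping libraries.

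**Figure D4:**
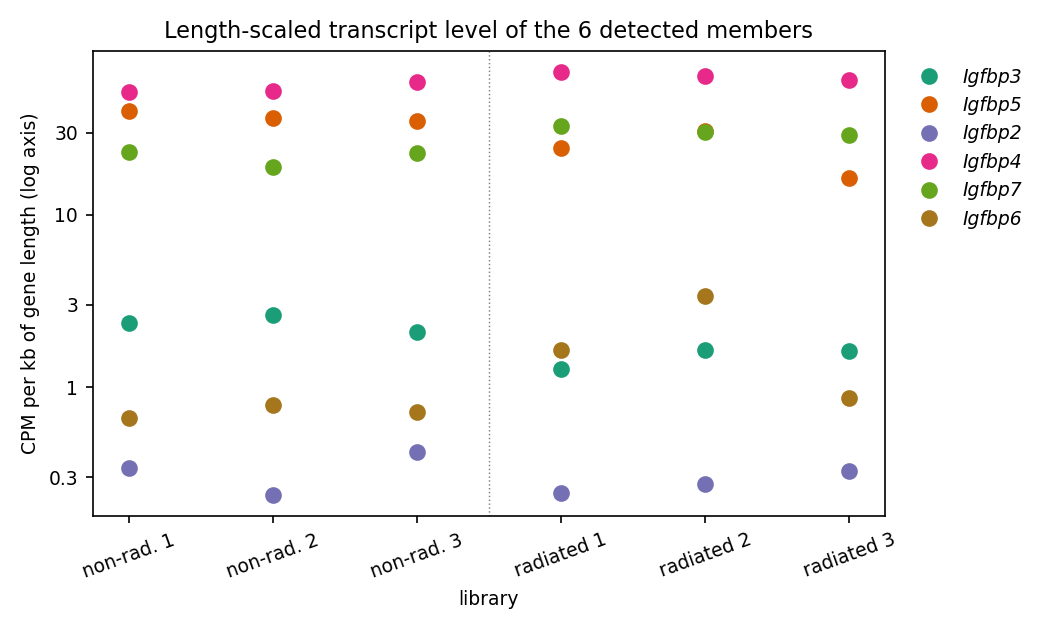
CPM per kilobase of gene length (log axis) of the 6 detected members in each library. Igfbp5 lies above Igfbp7 in the 3 non-radiated libraries and below it in radiated libraries 1 and 3, with the pair almost level in radiated library 2 (a ratio of 1.02).

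The rest of the pathway was read from 4 lists of 37 genes, of which 32 were tested. In all, 11 were called higher and 2 lower, beside 4.56% and 3.24% of all genes tested. The median log2 fold change of the 32 was 0.10. These lists were chosen with earlier results of these data known, so the counts are descriptions and no test of the pathway. Of the 13, 7 were called in all alternatives that gave a value. With library totals alone, 8 were called higher and none lower (edgeR, 15 at an unadjusted p under 0.05). Insrr, Irs4, Adam28, Mmp7 and Igfbpl1 were too low to test.

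Both ligands that the binding proteins carry were higher in radiated femur, and none of the receptors was called. Of 9 ligand, receptor and docking genes tested 3 were called higher and none lower. Igf2 was at 7.49, 7.27 and 6.47 CPM in non-radiated libraries 1, 2 and 3 and at 22.5, 25.4 and 25.3 CPM in radiated libraries 1, 2 and 3 (log2 fold change 1.79, SE 0.09, adjusted p by edgeR 1.43e-05). Igf1 was at 56.3, 51.9 and 44.8 CPM and at 81.5, 77.4 and 68.1 CPM in the same order (log2 fold change 0.57, SE 0.09, adjusted p by edgeR 0.00669). Irs1, a docking protein of the activated receptors, rose by 0.57 (adjusted p by edgeR 0.00625). Igf1r, the signalling receptor, had a log2 fold change of -0.28 (adjusted p by edgeR 0.0503), and was called with the replicate block (0.0487) and in 5 further alternatives, and without radiated library 2 among them (-0.35, 0.0270), in a range of 0.00590 to 0.855. Igf2r, which clears IGF2, was at 0.17 (adjusted p 0.171), Insr, the insulin receptor, at -0.16 (0.120), a sign that turned with library totals alone, and Igfals, the acid-labile subunit, at 0.80 from 0.267 ± 0.0317 and 0.473 ± 0.102 CPM (SD, n = 3 each, adjusted p by edgeR 0.195).

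Among 9 genes tested for proteases that cut binding proteins, and their inhibitors, 2 were called higher and none lower. Pappa2, whose product cuts IGFBP3 and IGFBP5, was at 0.357, 0.559 and 0.307 CPM in non-radiated libraries 1, 2 and 3 and at 1.35, 1.18 and 1.08 CPM in radiated libraries 1, 2 and 3. It rose by 1.60 on the log2 scale (SE 0.27, adjusted p by edgeR 0.00798). Pappa, the protease of IGFBP4, was at 71.9 ± 1.30 and 69.8 ± 3.17 CPM (SD, n = 3 each), a log2 fold change of -0.04 that was not called (adjusted p by edgeR 0.716). Adam9, a membrane metalloprotease, rose by 0.26 (adjusted p by edgeR 0.0453), a call lost when any 1 of the 6 libraries was left out (adjusted p 0.0586 to 0.186), with limma-voom (0.0552), the muscle covariate (0.110) and library totals alone (0.311, within 0.0210 to 0.311 over 15 alternatives). Stc1 and Stc2, which inhibit pappalysins, and Htra1, a secreted serine protease, had log2 fold changes of -0.09, -0.36 and -0.09 and adjusted p by edgeR of 0.913, 0.504 and 0.822, and the signs of Pappa, Stc1 and Htra1 turned with library totals alone.

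Of 6 genes for cell surface proteins that binding proteins attach to, 2 were called higher and 1 lower. Cd93, which encodes a receptor for IGFBP7, was at 182, 177 and 184 CPM in non-radiated libraries 1, 2 and 3. In radiated libraries 1, 2 and 3 it was at 231, 224 and 256 CPM (log2 fold change 0.39, SE 0.06, adjusted p by edgeR 0.00582). The call was lost with library totals alone (adjusted p 0.0909, the highest of a range from 3.42e-06 over 15 alternatives). Lrp1, a large scavenger receptor that binds IGFBP3, rose by 0.56 (adjusted p by edgeR 0.00844). Ptprz1, a phosphatase receptor for IGFBP2, fell by 0.50 (adjusted p by edgeR 0.0402), a call that held in 2 of 6 leave-one-out fits and was lost with library totals alone (-0.32, 0.619), library totals without AY036118 and Gm26917 (-0.47, 0.0524) and the muscle covariate (-0.47, 0.147), and without non-radiated library 1 (-0.41, 0.138), non-radiated library 3 (-0.52, 0.0715), radiated library 2 (-0.43, 0.107) or radiated library 3 (-0.44, 0.0968), within 0.000757 to 0.619 over 15 alternatives.

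Secreted proteins once grouped with the IGFBPs for a similar N-terminal domain, among them the CCN matrix proteins, gave 4 genes called higher and 1 lower of 8 tested. Ccn3, listed as Nov, was at 0.329, 0.439 and 0.189 CPM in non-radiated libraries 1, 2 and 3 and at 2.46, 3.17 and 1.03 CPM in radiated libraries 1, 2 and 3 (log2 fold change 2.85, SE 0.47, adjusted p by edgeR 0.00628). Its radiated libraries stood in the order of the summed skeletal muscle genes and of the summed fibroblast and tendon genes. With the muscle genes as a covariate the log2 fold change was 1.95 (SE 0.33, adjusted p by edgeR 0.00825). Ccn1, listed as Cyr61, rose by 0.79 (adjusted p by edgeR 0.00958), Crim1, a membrane protein that binds bone morphogenetic proteins, by 0.55 (0.0139), and Esm1, an endothelial proteoglycan, by 0.37 (0.0172). Kazald1, a secreted protein with a Kazal domain, fell by 0.90 (adjusted p by edgeR 0.0134). The calls of Crim1 and Esm1 were lost without radiated library 1 (adjusted p 0.0627 and 0.0663) and that of Esm1 also without non-radiated library 2 (0.0713), and the calls of Esm1 and Kazald1 were lost with library totals alone (0.134 and 0.114). With the muscle covariate Esm1 was at 0.0504 and Crim1 at 0.0539. Over 15 alternatives the adjusted p ran from 4.45e-05 to 0.0627 for Crim1, from 0.000840 to 0.134 for Esm1 and from 6.65e-05 to 0.114 for Kazald1. Of the 13 called pathway genes 7 overlap another row of the table (Igf1, Igf2, Irs1, Pappa2, Lrp1, Esm1 and Crim1), and their counts are uncertain if strand was not used.

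**Figure D5:**
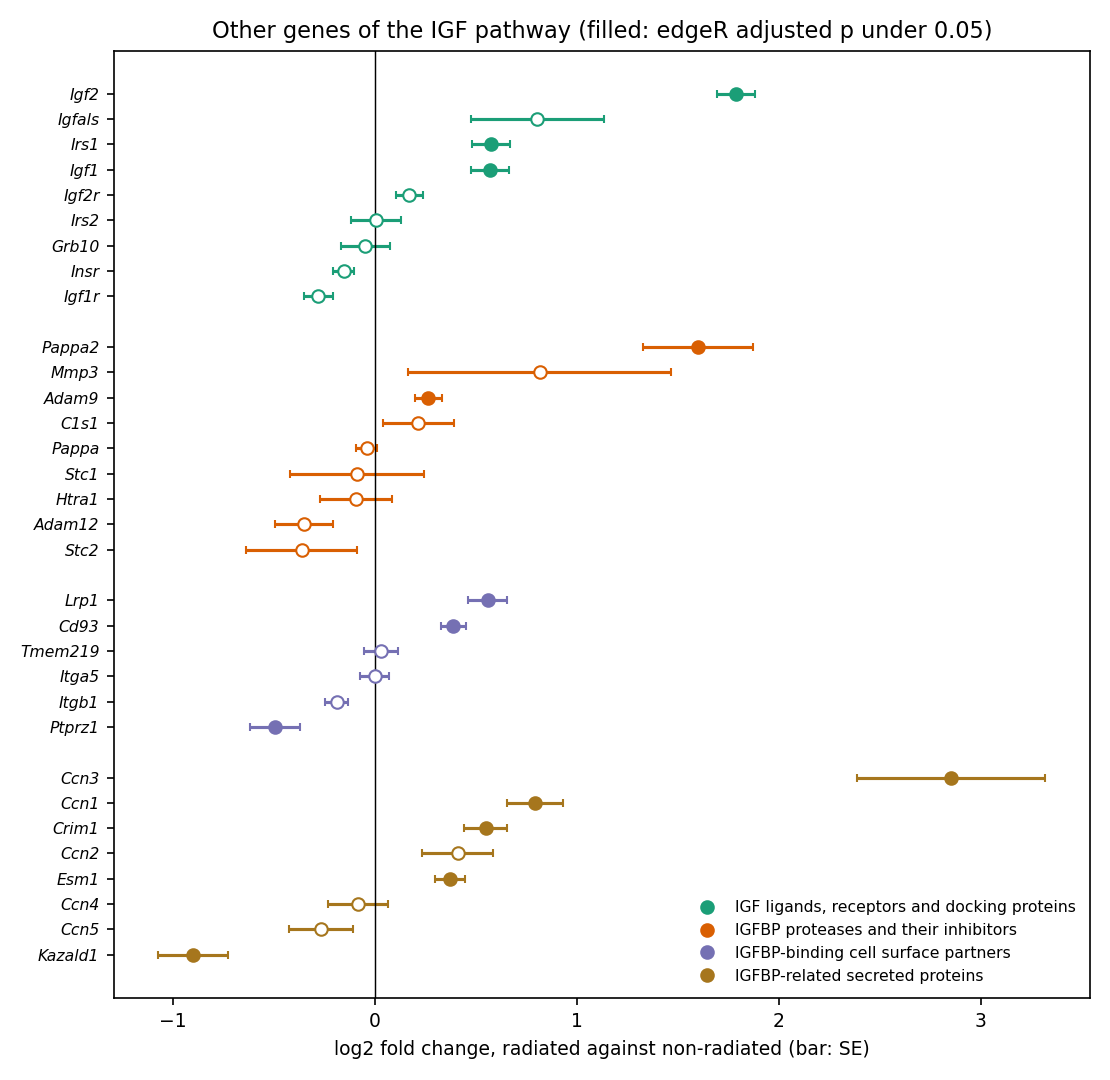
Log2 fold change, radiated against non-radiated (horizontal axis, bars SE), of the 32 tested pathway genes, coloured by list and filled where the adjusted p by edgeR was under 0.05. Igf2, Pappa2 and Ccn3 lie farthest to the right, and Ptprz1 and Kazald1 are the filled points left of 0.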

How the data were processed

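Per the submitters' processing notes, bcl2fastq, STAR 2.5.2b and featureCounts of Subread were used with build mm10. The annotation, filters and strand setting are not given in the sources used here, and the labels name a stranded mRNA kit. The table deposited by the authors holds raw counts and RPKM for 43346 genes, per the file headers. The counts were tested as deposited, and the authors' RPKM were not used.

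Low genes were removed by filterByExpr (10 counts at least, 15 in total), libraries scaled by TMM, and radiated and non-radiated libraries compared with glmQLFit and glmQLFTest of edgeR 4.0.16 in R 4.3.3, group only, with Benjamini-Hochberg adjustment over the 18757 genes tested. On simulated counts the fit recovered 74.5% of 2-fold and 95.7% of 4-fold changes, with 17 false calls among 18417 unchanged genes. Changes smaller than 2-fold were not simulated. SE is the log2 fold change divided by the square root of F. Strand and overlaps were read from GENCODE M21 and the table.

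All 7 members, called pathway genes and 11 ligand, receptor and protease genes were named by rule. Marker lists are given by their sums and counts. From the osteoblast, endothelial and liver lists the called genes are named, with some genes that were not called, which were chosen after their values were seen. The called genes of the marrow stroma list are named too. The members, lists and alternatives were chosen with earlier results of these data known.

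Same-numbered libraries deviated together from their group means (correlation across genes 0.166, 0.277 and 0.187, against -0.170 to -0.008 for other numbers). A gene's deviations cancel out within each group, so the negative values follow in part from the positive ones. No label states a pairing, so the main fit used group only and a block by replicate number was an alternative. Other alternatives were DESeq2 1.42.0 size factors and Wald test, library totals with and without AY036118 and Gm26917, other filters, limma-voom (limma 3.58.1), the summed muscle genes as a covariate, and leaving out each library.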

Additional observations from a re-analysis of the deposited data

How the results depend on the processing

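The count of called binding protein genes, 2 by edgeR, was 5 with no filter on low counts, 4 with DESeq2's Wald test and 4 with the replicate block, and 2 under the other scalings, the filter at a mean of 1 CPM, limma-voom and the muscle covariate. With library totals alone the 2 were both higher (Igfbp6 and Igfbp7), against 1 higher and 1 lower by edgeR with TMM. Leaving out 1 library gave 0 to 4: 1 without non-radiated library 1 or 2, 0 without radiated library 1 (5 at an unadjusted p under 0.05) and 4 without radiated library 3. The fits with no filter and with library totals alone leaned more on the spread shared by all genes than the main fit did. Their median prior degrees of freedom, which set that weight, were 16.5 and infinite, against 5.18. The pathway count of 13 was 8 with library totals alone. The count over all genes, 1463, ran from 764 (without radiated library 1) to 1376 when 1 library was left out, with 819 and 905 without non-radiated libraries 2 and 1. With library totals alone the log2 fold changes of Insr, Pappa, Stc1 and Htra1 turned to 0.03, 0.15, 0.09 and 0.07. Leaving out 1 library moved Stc1 from -0.31 to 0.21 and Htra1 from -0.21 to 0.09, above 0 for both without radiated library 3 and for Htra1 without non-radiated library 1 (0.01). The cause was not tested. The replicate block changed, among the members and the named pathway genes, the calls of Igfbp5, Igfbp6 and Igf1r and no other. Igfbp1 gave no value in any fit, and Igfbp2 none with the filter at a mean of 1 CPM. Igfbp1 had no count and Igfbp2 11 to 33 counts per library, so a difference in either was not detectable at this depth.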

Other observations

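For each tested member the 3 genes with the most similar pattern were listed, among the tested genes whose mean was 10 CPM or more. Similarity was the Pearson r over the 6 libraries of log2 of CPM plus 0.5, an offset near the level of Igfbp2 itself. With 6 libraries that share scaling and the group difference, many genes reach a high r, and the values are descriptions. Igfbp3 was closest to Cep70, Slk and St3gal6 (r of 0.991, 0.991 and 0.9902), Igfbp7 to Slc23a2, Traf5 and Lamb1 (0.998, 0.998 and 0.994), Igfbp4 to Hip1, Ltbp3 and Pik3cd (0.997, 0.995 and 0.992), and Igfbp5 to Fgl2, Atp5f1 and Kif2c (0.997, 0.993 and 0.986). Igfbp6 was closest to the rows ANKRD23 and Ankrd23 and to Pde4dip (0.998, 0.996 and 0.993), and Igfbp2, at its low counts, to RP23-122P5.3, Mast4 and Snora74a (0.989, 0.9796 and 0.9403). Lamb1, a laminin chain of basement membranes, was at 21.3, 16.9 and 20.4 CPM in non-radiated libraries 1, 2 and 3 and at 36.1, 32.5 and 30.7 CPM in radiated libraries 1, 2 and 3. Among the members, r was 0.867 between Igfbp4 and Igfbp7, 0.706 between Igfbp3 and Igfbp5, and -0.966 between Igfbp3 and Igfbp7 (n = 6 libraries).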
